A study of Mus musculus with 18 samples.

Results

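The genes described here are the chemokine and cytokine ligands of the mouse: all genes named Cxcl, Ccl or Csf1 to Csf3 by number, Cx3cl1, and 13 interleukin, interleukin 6 family and tumour necrosis factor family genes (Il1a, Il1b, Il1rn, Il6, Il11, Il18, Il33, Il34, Lif, Tnf, Tslp, Tnfsf18 and Tnfsf10). The rule goes by gene symbol and uses no measured value. The rule found 54 genes, of which 53 were in the 56691 features of the estradiol table and all 54 in the 56893 of the Torin table. Of these, 48 and 51 had at least 1 count.

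RNA with poly(A) tails was sequenced from mammary epithelial organoids grown from wild-type, nulliparous C57BL/6 mice, in 18 libraries of 6 groups with 3 libraries each. In the first experiment, organoids from mice of about 24 weeks received estradiol at 10 nM or its vehicle, 96% ethanol diluted into the medium, over 11 of 12 days of culture. In the second, organoids from mice of about 15 weeks received Torin 1, an inhibitor of the mTOR kinase, at 100 nM or its vehicle DMSO, in Matrigel droplets over 18 days of culture, in 2 arms named D6 and D12. All cultures were kept in EpiCult-B medium, with 5% serum for the first 24 h. D6 stands for 6 and D12 for 12 days of treatment in the sample labels but for the opposite in the design text, so only the names are used. The arms also carry different batch tags, and batch, length and start of treatment cannot be told apart. The 3 libraries of a group are not stated to come from separate mice, and the p-values measure the spread between libraries, which may be technical.

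Chemokines are small secreted proteins that steer leukocytes through G protein-coupled receptors, and their names follow the spacing of the first cysteines (CXC, CC, CX3C). Cytokines such as IL-6, LIF and G-CSF act through receptors that signal by JAK kinases and STAT factors, while IL-1 and TNF act mainly through NF-kB. In the mammary gland, epithelial cells and the stroma around them both make such ligands, and macrophages drawn into the tissue take part in the growth and branching of its ducts. mTOR is a kinase that couples nutrients and growth factors to protein synthesis, and the estrogen receptor is a ligand-activated transcription factor of part of the luminal cells.

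Total counts were 20637473 to 24312079 per library in the estradiol and 23239364 to 28910688 in the Torin experiment. Epithelial marker genes (Epcam, Cdh1, keratins and others, 11 genes) summed to 12640 to 13475 CPM (counts scaled to a common library total) in the estradiol and 6114 to 11015 CPM in the Torin experiment. Most immune markers had too few counts to be tested: 3 of 20 in the estradiol and 3 of 21 in the Torin experiment had enough. The whole list summed to 3.64 to 20.2 CPM, with the highest sum in a Torin D6 library. Tyrobp, Nkg7 and the C1q genes were without a count in at least 1 whole group. Fibroblast markers were present, at 1195 to 2563 CPM over 12 genes. The third Torin library of each arm stood apart from the others of its group: a chi-square per gene between libraries was 108 and 132 against the third library of Torin D6 but 14.3 between the other pair, and 44.8 and 48.8 against 8.09 in Torin D12. Counts of members were therefore also taken without both.

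Sequences from before the starts of 6 member genes are printed because these genes carry matches to a motif of NF-kB or stand beside genes that do, and because their RNA moved in the data below. Csf1 also carries a match and moved, and is not printed. They are the 250 bases before the annotated start, 5′ to 3′ on the strand of the gene, from RefSeq annotation of build GRCm38.p6, and capitals mark the matches. The motifs were chosen with the values known: GGGA and TTCC with any 2 bases between for NF-kB, and GAAA and GAAA with any 2 bases between for the interferon-stimulated response element, each searched on both strands. Promoter entries were matched for 40 of the 54 members by symbol.
Cxcl1 (chr5:90890995-90891244, plus strand): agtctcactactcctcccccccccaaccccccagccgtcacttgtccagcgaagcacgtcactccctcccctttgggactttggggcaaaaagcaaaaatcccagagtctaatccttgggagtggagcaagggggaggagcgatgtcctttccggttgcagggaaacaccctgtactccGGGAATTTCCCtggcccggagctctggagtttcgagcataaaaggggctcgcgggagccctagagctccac
Cxcl2 (chr5:90903649-90903898, plus strand): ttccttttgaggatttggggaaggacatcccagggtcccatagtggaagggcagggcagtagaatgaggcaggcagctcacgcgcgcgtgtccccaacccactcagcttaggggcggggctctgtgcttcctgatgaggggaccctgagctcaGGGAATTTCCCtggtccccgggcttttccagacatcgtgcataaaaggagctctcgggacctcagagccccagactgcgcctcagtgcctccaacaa
Cxcl3 (chr5:90785851-90786100, plus strand): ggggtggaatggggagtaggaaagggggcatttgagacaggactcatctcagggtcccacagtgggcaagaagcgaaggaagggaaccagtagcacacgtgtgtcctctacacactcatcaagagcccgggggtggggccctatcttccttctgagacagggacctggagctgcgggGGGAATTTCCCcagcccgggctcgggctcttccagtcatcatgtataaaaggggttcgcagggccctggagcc
Cxcl15 (chr5:90794284-90794533, plus strand): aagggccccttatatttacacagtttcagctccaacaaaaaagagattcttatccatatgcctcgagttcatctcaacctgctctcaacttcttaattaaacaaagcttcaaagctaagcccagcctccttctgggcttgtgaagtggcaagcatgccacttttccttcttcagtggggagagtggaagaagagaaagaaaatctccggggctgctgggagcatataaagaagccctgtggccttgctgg
Il6 (chr5:30012864-30013113, plus strand): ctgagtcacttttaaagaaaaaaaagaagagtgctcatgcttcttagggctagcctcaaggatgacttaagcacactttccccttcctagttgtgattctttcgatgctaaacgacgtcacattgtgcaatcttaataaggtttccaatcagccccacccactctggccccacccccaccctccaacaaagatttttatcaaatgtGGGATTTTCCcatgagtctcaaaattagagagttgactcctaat
Cxcl10 (chr5:92348890-92349139, minus strand): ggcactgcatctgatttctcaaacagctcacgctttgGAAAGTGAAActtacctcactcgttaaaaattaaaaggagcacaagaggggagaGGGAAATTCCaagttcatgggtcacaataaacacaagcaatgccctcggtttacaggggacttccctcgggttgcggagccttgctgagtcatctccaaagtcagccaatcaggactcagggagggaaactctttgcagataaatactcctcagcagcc

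Cxcl1, Cxcl2 and Cxcl3 hold the same 11 letters, GGGAATTTCCC, which match the NF-kB motif on both strands in overlap and begin 71, 97 and 73 bases before the start. Il6 holds GGGATTTTCC from 44 bases before its start, and Cxcl10 holds GGGAAATTCC from 159 bases and GAAAGTGAAA from 213 bases before it. Cxcl15, which lies between Cxcl3 and Cxcl1 in the same row of genes, has no match to either motif in this window. Among all 32851 promoter windows of this length, 1.21% hold the NF-kB motif and 2.98% the interferon motif. Of the 40 members with an entry, 7 hold the first (Ccl1, Csf1, Cxcl1, Cxcl10, Cxcl2, Cxcl3 and Il6) and 3 the second (Ccl19, Cxcl10 and Cxcl14). The shares are of single windows, while members are counted by gene, and some members have several windows. Among the members that rose in Torin D6 below, Ccl20, Ccl28, Cxcl12, Cxcl15, Il1rn and Lif have an entry but no NF-kB match. Ccl5, Csf3, Cxcl5, Cxcl16 and Il34 also rose there and have no entry. Csf1 and Cxcl10, which hold a match, fell in Torin D6. A match is a run of letters and was not tested for binding.

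After a filter on low counts, 36 of 53 members could be tested in the estradiol and 37 of 54 in the Torin experiment, with edgeR's quasi-likelihood test and p-values adjusted over all genes by the Benjamini-Hochberg method at a threshold of 0.05. Rose and fell refer to genes past it. With estradiol, 14 of 36 members rose and 5 fell, where 17.4% of all 15358 genes tested rose and 16.6% fell. The median log2 fold change was 0.17 over the members and -0.01 over all genes. With Torin in D6, 15 of 37 members rose and 12 fell, against 19.8% and 19.3% of 18112 genes, with a median of 0.20 and 0.05. In D12, 10 rose and 11 fell, against 10.8% and 14.6%, with a median of -0.02 and 0.01. Changes of at least 2-fold were found in 5 members up and 2 down with estradiol, against 1.67% and 2.4% of genes, and in 13 up and 10 down in Torin D6, against 7.29% and 8.67%. In Torin D12 they were 6 up and 6 down, against 2.79% and 4.98%. In either direction, 19 of 36, 27 of 37 and 21 of 37 members were called, against 34.0%, 39.1% and 25.4% of genes, and the groups of 21, 31 and 25 members did not overlap, as was so for 46.4%, 48.5% and 43.7%. Without the third Torin libraries, 14 members rose and 16 fell in D6, against 19.8% and 21.6% of the 18510 genes tested in that fit, and 10 rose and 13 fell in D12, against 17.5% and 18.0%. The filter was run again in that fit, so these counts can include members outside the 37 tested above. Fewer cells of a type and less RNA per cell cannot be told apart in these bulk libraries.

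**Figure D1:**
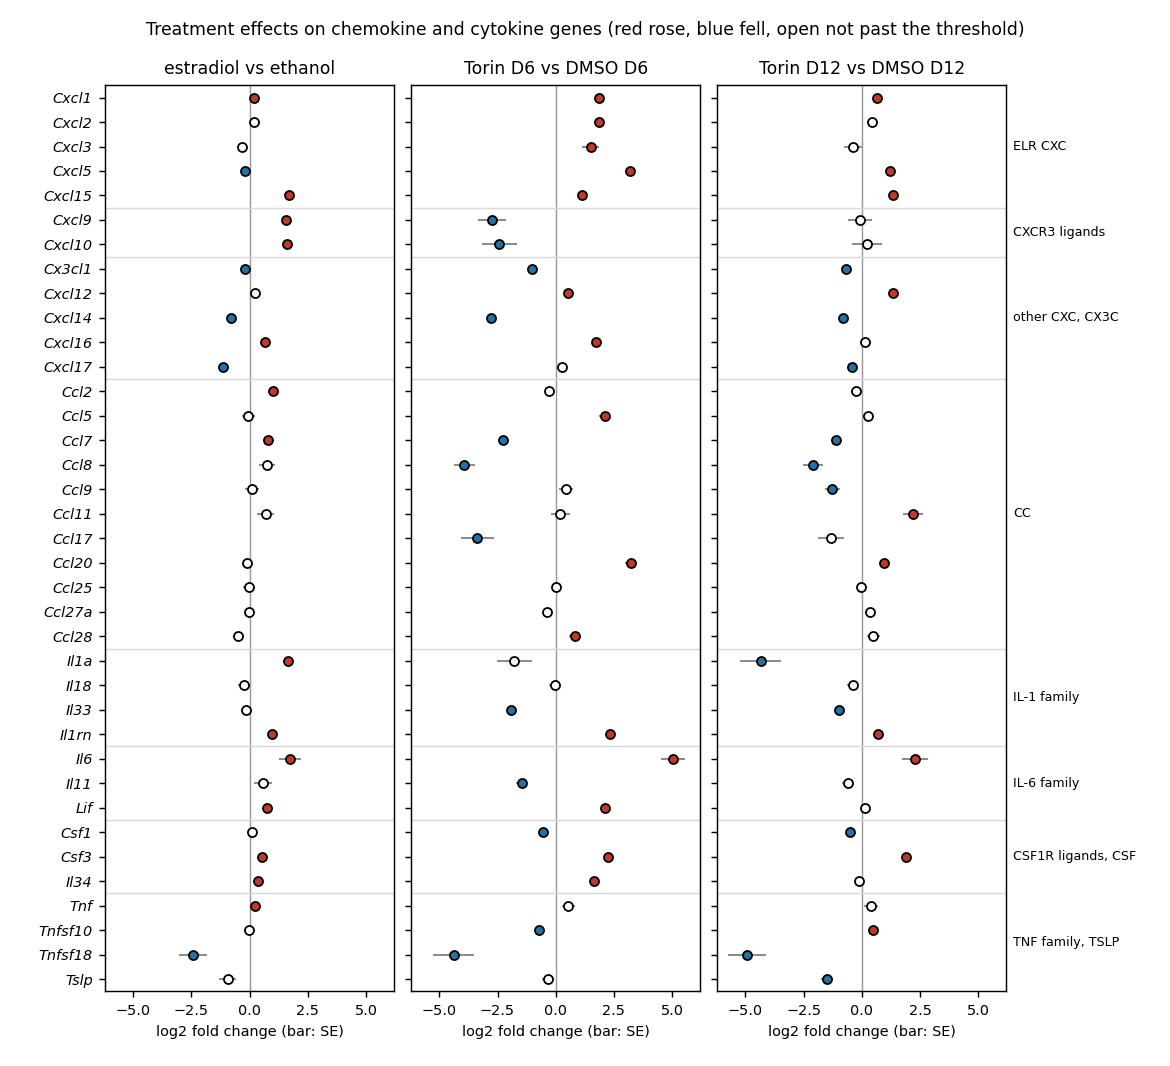
Log2 fold change (x axis, with SE as bars) of each member tested, by role (rows), for estradiol against ethanol and Torin against DMSO in both arms. Red points rose, blue points fell and open points did not pass the threshold; Csf3, Cxcl1, Cxcl15, Il1rn and Il6 rose in all 3 comparisons, and Cx3cl1, Cxcl14 and Tnfsf18 fell in all 3. The estradiol calls of Cxcl1, Il6 and Tnfsf18 were lost without certain single libraries.

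The members took a small share of all counts, and that share differed between groups. Ethanol libraries held 0.148 to 0.157%, and estradiol libraries held 0.165 to 0.172%. In the Torin experiment it was 0.272 to 0.283% in DMSO D6 and 0.393 to 0.503% in Torin D6, and 0.262 to 0.273% in DMSO D12 and 0.261 to 0.325% in Torin D12. Cxcl5 alone supplied 33.1 to 47.7% of member counts in Torin D6, 6.79 to 7.64% in DMSO D6, 14.8 to 19.4% in Torin D12 and 7.09 to 7.51% in DMSO D12. These shares are given without a test.

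Across the 3 treatments, 5 members rose in each (Csf3, Cxcl1, Cxcl15, Il1rn and Il6) and 3 fell in each (Cx3cl1, Cxcl14 and Tnfsf18), where 4.64% and 5.4% of the 13613 genes tested in all 3 did. Cxcl16, Il34 and Lif rose with estradiol and in Torin D6 without a call in D12. Cxcl9 and Cxcl10 rose with estradiol and fell in Torin D6. Ccl7 rose with estradiol and fell in both Torin arms, and Cxcl5 fell with estradiol and rose in both. Some of these calls were fragile, as given with each gene. The estradiol calls of Cxcl1, Il6, Tnfsf18, Cxcl5 and Ccl7 and the Torin D6 call of Cxcl10 were lost without certain single libraries. The estradiol call of Il34 was lost on the authors' normalized signal. Ccl25, Ccl27a and Il18 passed the threshold in none of the 3, with adjusted p of at least 0.0582, although Ccl27a fell in D6 under other settings named with its values.

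The chemokines with a Glu-Leu-Arg motif, Cxcl1, Cxcl2, Cxcl3, Cxcl5 and Cxcl15, are ligands that draw neutrophils, and they lie in a row on chromosome 5 with 2 other genes between Cxcl5 and Cxcl3. All 5 rose in Torin D6 and 3 in D12, against 19.8% and 10.8% of all genes tested. With estradiol 2 rose and 1 fell, against 17.4% and 16.6% of genes. Cxcl5 had the largest rise of the row in D6. Its values were 215, 197 and 187 CPM in DMSO D6 and 1672, 1268 and 2512 CPM in Torin D6, a log2 fold change of 3.19 (SE 0.24, adjusted p = 1.06e-06). In D12 they were 200.1, 209.9 and 199 against 444, 376 and 603 CPM, a log2 fold change of 1.23 (SE 0.22, adjusted p = 0.00168). The groups did not overlap in either arm, the 3 Torin D6 libraries were spread over a wide range, and the third Torin library was the highest in both arms. Without the third Torin library of both arms, the log2 fold changes of Cxcl5 were 2.87 and 1.03.

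Cxcl1 read 118, 129 and 117 CPM in DMSO D6 and 458, 352 and 507 CPM in Torin D6 (log2 fold change 1.85, SE 0.15, adjusted p = 2.2e-06). In D12 it read 127, 149 and 121 against 197, 178 and 247 CPM (log2 fold change 0.65, SE 0.15, adjusted p = 0.0068). Cxcl1 was thus higher with Torin in both arms without overlap, and the rise was smaller in D12. Cxcl2 went from 11.9, 11.6 and 10.1 to 42.3, 31.8 and 47.6 CPM in D6 (log2 fold change 1.86, SE 0.22, adjusted p = 4.55e-05), and in D12 from 17.2, 13.7 and 13.7 to 17.2, 15.3 and 27.6 CPM with overlap between the groups (adjusted p = 0.172). Cxcl3, with few counts, had 1.42 ± 0.201 CPM (mean ± SD, n = 3) in DMSO D6 and 4.06 ± 1.69 in Torin D6 (log2 fold change 1.51, SE 0.37, adjusted p = 0.00659). In D12 Cxcl3 had 1.69 ± 0.111 and 1.3 ± 0.657 CPM and was not called (adjusted p = 0.514).

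Cxcl15, known as lungkine, rose to a like level in both arms. It read 56.0, 57.3 and 44.8 CPM in DMSO D6 and 109, 108 and 124 CPM in Torin D6 (log2 fold change 1.11, SE 0.10, adjusted p = 5.33e-06). In D12 it read 46.0, 44.4 and 43.5 and 107, 109.5 and 121 CPM (log2 fold change 1.34, SE 0.10, adjusted p = 4.58e-06). The Torin libraries of the arms overlapped, and the difference between the arms' effects, 0.23 (SE 0.14, adjusted p = 0.352), did not pass the threshold, while those of Cxcl1, Cxcl2, Cxcl3 and Cxcl5 did. With estradiol Cxcl15 rose from 22.2, 21.2 and 21.0 CPM in ethanol to 79.8, 64.7 and 60.1 CPM (log2 fold change 1.67, SE 0.09, adjusted p = 3.05e-09). That is a 3.18-fold rise, with all estradiol libraries above all ethanol libraries.

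The other 4 genes of the row had smaller log2 fold changes with estradiol, of which those of Cxcl5 and Cxcl1 passed the threshold. Cxcl5 read 397, 332 and 345 CPM in ethanol and 293, 312 and 330.3 CPM in estradiol libraries (log2 fold change -0.20, SE 0.06, adjusted p = 0.0216), and Cxcl1 read 155, 128 and 142 and 161, 162 and 155 CPM (log2 fold change 0.17, SE 0.06, adjusted p = 0.0351). Both are small changes close to the threshold, and the groups of Cxcl1 overlapped. The call of Cxcl5 was lost without ethanol library 1, estradiol library 1 or estradiol library 2 (adjusted p up to 0.117) and with DESeq2 (0.1) or limma on the deposited signal, and that of Cxcl1 without ethanol library 2 or 3 or estradiol library 1 or 2 (up to 0.157) and with limma on the signal (0.0635). Cxcl2 (log2 fold change 0.18, SE 0.08, adjusted p = 0.108) and Cxcl3 (log2 fold change -0.31, SE 0.17, adjusted p = 0.171) were not called, but Cxcl2 rose without estradiol library 1 (adjusted p = 0.0143) and without a filter (0.0344).

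**Figure D2:**
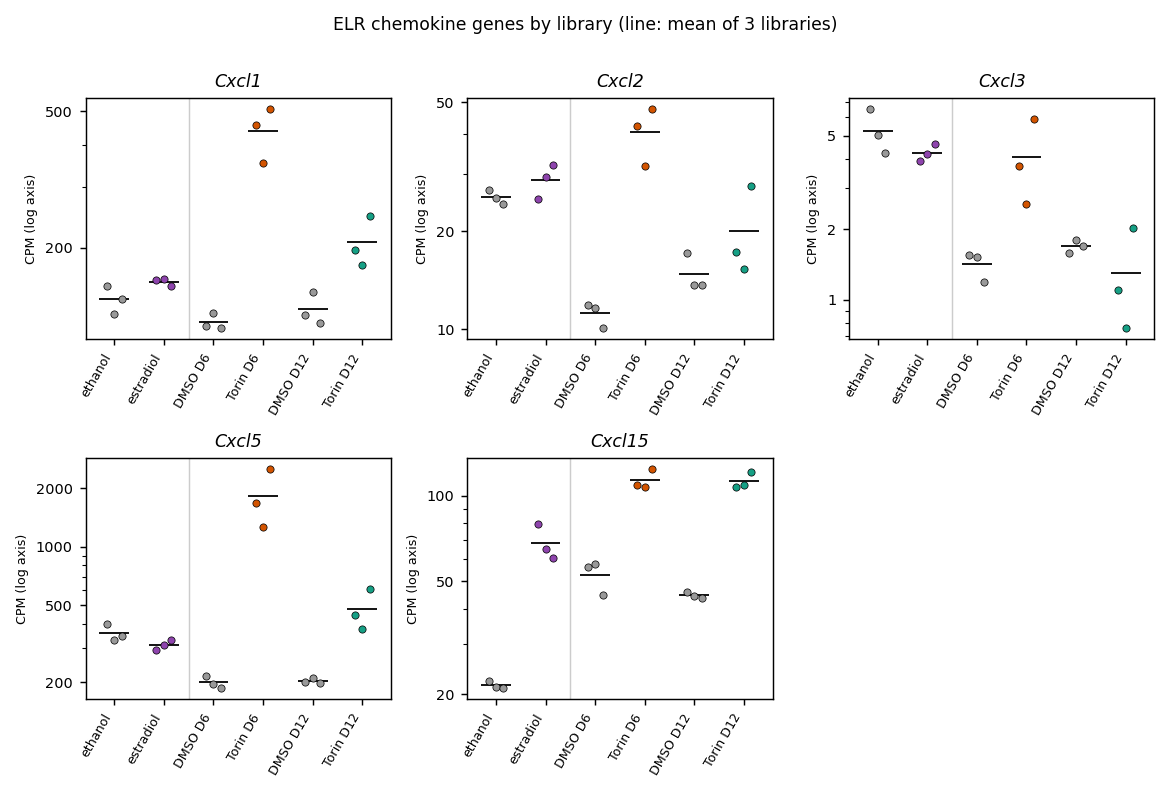
CPM (log axis) of Cxcl1, Cxcl2, Cxcl3, Cxcl5 and Cxcl15 in every library, by group, with lines at the mean of 3 libraries; grey points are vehicle groups, and a vertical line parts the experiments. Cxcl5 reached 1672, 1268 and 2512 CPM in Torin D6 against at most 215 in DMSO D6, while Cxcl15 lay near 113 CPM on average in Torin D12 as in D6.

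Cxcl9 and Cxcl10 are ligands of CXCR3, the receptor of activated T and NK cells, and are classical interferon-induced genes. They rose together with estradiol and fell together in Torin D6. Cxcl9 read 2.12, 2.69 and 2.23 CPM in ethanol and 6.66, 7.15 and 6.82 CPM in estradiol libraries (log2 fold change 1.55, SE 0.15, adjusted p = 2.27e-06). Cxcl10 read 5.24, 5.5 and 6.80 and 11.2, 24.7 and 18.0 CPM (log2 fold change 1.62, SE 0.22, adjusted p = 4.73e-05), about a 3-fold rise with the estradiol libraries spread over a wide range. Both were scarce in the Torin experiment. Cxcl9 had 82 counts in all of DMSO D6 and 13 in Torin D6 (log2 fold change -2.75, SE 0.60, adjusted p = 0.00362), and Cxcl10 had 78 and 16 (log2 fold change -2.42, SE 0.76, adjusted p = 0.0245). The fall of Cxcl10 was not called without DMSO D6 library 2 or without Torin D6 library 1 or 2 (adjusted p up to 0.105), nor with limma on the signal (0.0721). In D12 neither was called, with log2 fold changes of -0.07 (SE 0.52) and 0.22 (SE 0.64). The third CXCR3 ligand, Cxcl11, had too few counts to be tested: 1 in ethanol and 10 in estradiol libraries, a ratio of 10.4 with a 95% counting interval of 1.47 to 449.5.

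A list of 21 interferon response genes was counted beside these ligands. With estradiol, 20 of 21 rose and 1 fell, with a median log2 fold change of 0.70 against -0.01 over all genes, and Gbp2 (log2 fold change 0.60, adjusted p = 2.43e-06) and Oasl1 (log2 fold change 0.95, adjusted p = 4.22e-06) were among those with the lowest p. In Torin D6, 20 of 21 fell, with a median of -2.49, led by Ifih1 (log2 fold change -1.54, adjusted p = 3.21e-06), Irf7 (log2 fold change -4.11, adjusted p = 2.42e-05) and Oasl2 (log2 fold change -2.75, adjusted p = 8.6e-05). In Torin D12, 13 of 21 fell, with a median of -1.10, although Cxcl9 and Cxcl10 did not. Without the third Torin libraries, 20 and 18 of 21 fell, against 21.6% and 18.0% of all genes. In the full fits 17.4% of all genes rose and 16.6% fell with estradiol. In Torin D6 and D12, 19.3% and 14.6% of all genes fell. The list was drawn up with results of these data known, so its direction is no independent evidence.

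Cxcl14, a chemokine made by resting epithelia, had the largest fall of the remaining CXC genes. Its values were 294, 346 and 345 CPM in DMSO D6 and 45.0, 35.1 and 63.3 CPM in Torin D6 (log2 fold change -2.78, SE 0.17, adjusted p = 2.64e-07). In D12 they were 279.9, 281 and 279.9 and 167, 157 and 161 CPM (log2 fold change -0.79, SE 0.16, adjusted p = 0.00342). With estradiol they were 23.8, 30.3 and 27.4 and 19.8, 15.0 and 11.6 CPM (log2 fold change -0.81, SE 0.14, adjusted p = 0.000411). In each comparison the treated libraries all lay below all vehicle libraries, and the libraries of D12 hardly varied within a group. Cx3cl1, the membrane-bound ligand of the macrophage receptor CX3CR1, also fell in all 3. It read 786, 892 and 864 against 427, 397 and 445 CPM in D6 (log2 fold change -1.0, SE 0.10, adjusted p = 1.3e-05), and 959.8, 905 and 819.9 against 568, 477 and 613 CPM in D12 (log2 fold change -0.70, SE 0.10, adjusted p = 0.000411). With estradiol it read 531, 510.4 and 549 against 454, 485 and 433 CPM, a smaller fall (log2 fold change -0.21, SE 0.05, adjusted p = 0.00221).

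Cxcl12, the ligand of CXCR4, which is made largely by stromal cells, rose in both Torin arms. It read 81.5, 75.3 and 91.4 and 122, 123 and 115 CPM in D6 (log2 fold change 0.54, SE 0.09, adjusted p = 0.000442), and 65.0, 72.9 and 65.8 and 180.4, 157 and 175 CPM in D12 (log2 fold change 1.33, SE 0.09, adjusted p = 2e-06). The groups did not overlap, and the rise was larger in D12. With estradiol Cxcl12 was not called (log2 fold change 0.23, SE 0.12, adjusted p = 0.145); estradiol library 3 was the lowest of its group, at 34.7 CPM, and without it the adjusted p was 0.00602, and without a filter it was 0.000495. Cxcl16, a membrane-bound ligand of CXCR6, rose from 87.1, 81.1 and 72.2 to 267, 281 and 240.1 CPM in D6 (log2 fold change 1.71, SE 0.12, adjusted p = 7.14e-07), and read 96.8, 90.2 and 125 and 112, 119 and 109 CPM in D12, where the groups overlapped (adjusted p = 0.496). With estradiol Cxcl16 rose from 51.9, 49.5 and 50.5 to 82.8, 74.4 and 83.3 CPM (log2 fold change 0.66, SE 0.05, adjusted p = 1.84e-07).

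Cxcl17, a chemokine of mucosal epithelia, had the lowest log2 fold change of the CXC genes with estradiol. It read 14.5, 13.8 and 14.4 CPM in ethanol and 7.83, 5.40 and 6.11 CPM in estradiol libraries (log2 fold change -1.14, SE 0.12, adjusted p = 4.2e-06), so that all treated libraries lay below all controls. In Torin D6 it was not called (log2 fold change 0.28, SE 0.14, adjusted p = 0.128), and in D12 it fell (log2 fold change -0.43, SE 0.14, adjusted p = 0.0381). The D12 call was lost without DMSO library 1 or 2 or Torin library 1 or 2 (adjusted p up to 0.142), without a filter (0.077) and with the 2 groups fitted alone. Cxcl13, a ligand for B cells, was not tested: 13 counts in DMSO D6 and 0 in Torin D6, at least 4.71-fold lower with Torin when 3 counts over the group are taken as the floor.

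**Figure D3:**
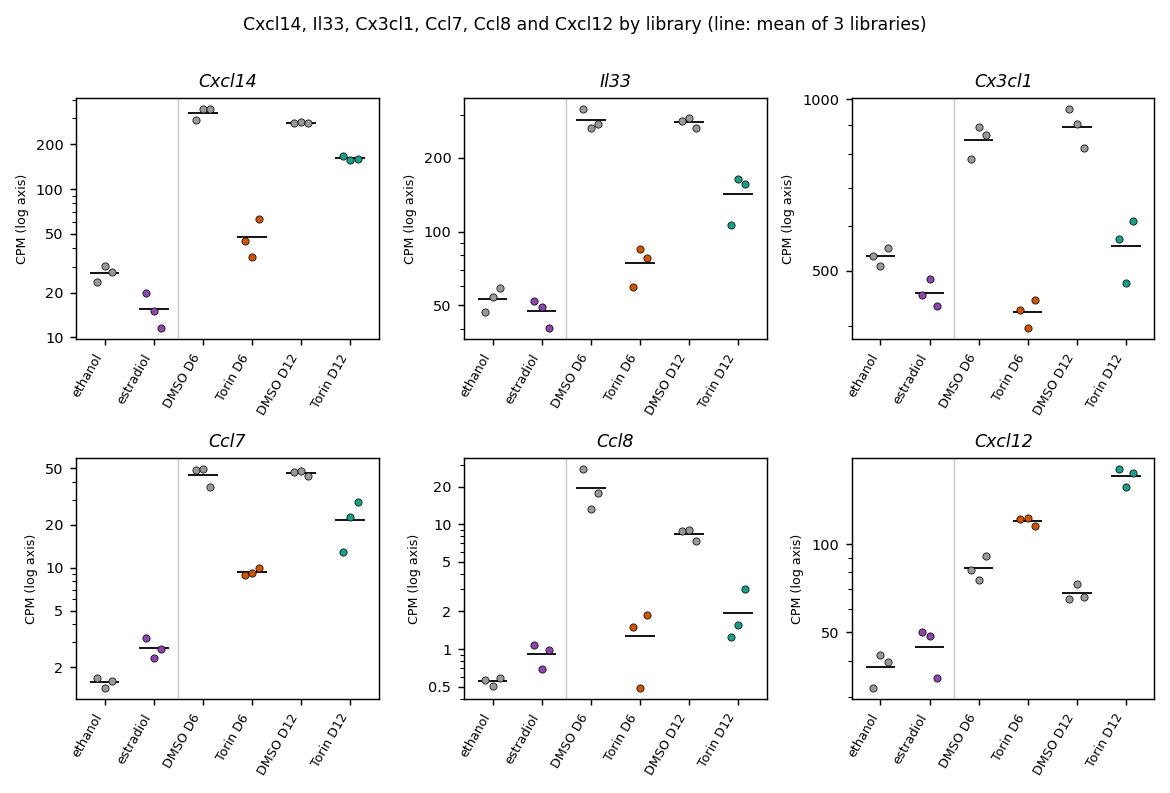
CPM (log axis) of Cxcl14, Il33, Cx3cl1, Ccl7, Ccl8 and Cxcl12 in every library, by group, with lines at the mean of 3 libraries; grey points are vehicle groups. The first 5 genes lay lower in the Torin libraries of both arms than in their DMSO libraries, and Cxcl12 lay higher.

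Of the CC chemokines, 10 of 23 in the estradiol table and 11 of 24 in the Torin table could be tested. Ccl20, the ligand of CCR6, which recruits Th17 and dendritic cells to epithelia, had the highest log2 fold change of these in Torin D6. It read 4.47, 5.99 and 4.22 CPM in DMSO D6 and 40.9, 36.0 and 62.0 CPM in Torin D6, a 9.47-fold rise (log2 fold change 3.24, SE 0.25, adjusted p = 1.68e-06). In D12 it read 6.63, 6.55 and 7.25 and 11.1, 11.0 and 17.6 CPM (log2 fold change 0.95, SE 0.24, adjusted p = 0.0114). As with Cxcl5, the groups were apart in both arms and the third Torin library was the highest. With estradiol Ccl20 was not called (log2 fold change -0.10, SE 0.22, adjusted p = 0.747). Ccl5, a chemokine for T cells and monocytes, rose from 3.62, 2.64 and 3.68 to 14.9, 11.0 and 16.7 CPM in D6 (log2 fold change 2.10, SE 0.23, adjusted p = 2.84e-05) and read 3.20, 3.08 and 4.31 and 3.27, 4.21 and 5.14 CPM in D12 (adjusted p = 0.477). The D12 groups overlapped. With estradiol Ccl5 was not called either (log2 fold change -0.05, SE 0.26).

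Ccl2, Ccl7, Ccl11, Ccl12, Ccl8 and Ccl1 follow each other on chromosome 11, and their proteins attract monocytes and eosinophils among other cells. These neighbours did not move together. Ccl2, the main monocyte chemokine, read 6.88, 7.18 and 7.09 CPM in ethanol and 14.0, 13.8 and 14.4 CPM in estradiol libraries, a 1.99-fold rise with little spread (log2 fold change 0.99, SE 0.09, adjusted p = 1.02e-06). In the Torin experiment it read 113, 105 and 89.8 against 82.7, 70.9 and 97.0 CPM in D6 and 97.4, 97.8 and 89.4 against 57.1, 82.6 and 102 CPM in D12, with overlap and no call (log2 fold change -0.29, SE 0.18; log2 fold change -0.24, SE 0.18). Without the third Torin libraries, which held the highest Ccl2 of each Torin group, Ccl2 fell in both arms (log2 fold change -0.42, adjusted p = 0.0184; log2 fold change -0.42, adjusted p = 0.0222).

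Ccl7 fell from 48.6, 49.3 and 36.8 to 8.85, 9.13 and 10.0 CPM in D6 (log2 fold change -2.27, SE 0.23, adjusted p = 1.55e-05), and from 47.4, 47.7 and 44.3 to 13.0, 22.9 and 28.8 CPM in D12 (log2 fold change -1.11, SE 0.22, adjusted p = 0.00357). Ccl8 fell from 27.5, 13.2 and 17.7 to 1.49, 0.488 and 1.86 CPM in D6 (log2 fold change -3.92, SE 0.46, adjusted p = 4.02e-05), and from 8.73, 8.92 and 7.29 to 1.26, 1.55 and 3.04 CPM in D12 (log2 fold change -2.08, SE 0.43, adjusted p = 0.00402). Both genes were lower in every Torin library than in every DMSO library of the same arm. Ccl12 was not tested, with 111 counts in DMSO D6 and 7 in Torin D6, a ratio of 0.0580 (95% counting interval 0.0228 to 0.123). Ccl11, the eosinophil chemokine eotaxin, read 3.73, 3.67 and 2.17 and 3.63, 1.77 and 5.58 CPM in D6 without a call, and rose from 1.18, 0.956 and 1.29 to 3.08, 6.67 and 5.91 CPM in D12 (log2 fold change 2.19, SE 0.42, adjusted p = 0.0027). The DMSO groups of Ccl11 did not overlap either, with lower values in D12. The D12 rise was thus measured from lower control values, though the difference between the DMSO groups was not called. With estradiol Ccl7 rose (log2 fold change 0.79, SE 0.23, adjusted p = 0.0136), a call lost without ethanol library 2 or estradiol library 1 (adjusted p up to 0.0726), while Ccl8 (log2 fold change 0.74, adjusted p = 0.116) and Ccl11 (log2 fold change 0.69, adjusted p = 0.181) were not called.

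Markers of fibroblasts, cells that also make Ccl2, Ccl7, Ccl8, Ccl11 and Cxcl12, were counted beside these genes. In Torin D6, where Ccl7 and Ccl8 fell, Cxcl12 rose and Ccl2 and Ccl11 were not called, 10 of 12 fell and 0 rose, and their sum was 1195 to 1629 CPM against 2046 to 2460 in DMSO D6. In D12, 2 rose and 2 fell, with a sum of 1848 to 2563 against 2122 to 2253 CPM, and without the third Torin libraries 2 rose and 6 fell. With estradiol 8 rose and 2 fell, with a sum of 1752 to 1924 against 1819 to 2047 CPM. Epithelial markers fell more often than they rose in D12, 7 against 1 of 11 (9 against 1 without the third Torin libraries), with a sum of 6114 to 7731 against 9556 to 9938 CPM. In D6, 4 rose and 4 fell (4 and 6 without those libraries), with a sum of 9095 to 11015 against 7649 to 9029 CPM. Mesothelial markers (4 genes, of which Msln alone was tested) summed to 34.1 to 49.2 CPM in Torin D6 against 1.63 to 2.17 CPM in DMSO D6, and to 0.533 to 1.40 against 2.30 to 4.38 CPM in D12. Endothelial markers (9 genes) summed to 87.1 to 106 against 52.5 to 63.0 CPM in D6, but of the 4 tested 1 rose and 1 fell, with a median log2 fold change of -0.70. Of the 3 immune markers tested in D6, 2 rose and 1 fell, and the whole list summed to 6.35 to 20.2 against 8.05 to 13.7 CPM. Over all genes tested, 19.8% rose and 19.3% fell in Torin D6, 10.8% and 14.6% in D12, and 17.4% and 16.6% with estradiol. Without the third Torin libraries the shares were 19.8% and 21.6% in D6 and 17.5% and 18.0% in D12. The part of these cell types in the results was not tested.

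The remaining CC genes had low levels. Ccl17, a ligand of CCR4, had 41 counts in DMSO D6 and 4 in Torin D6, a ratio of 0.0897 (95% counting interval 0.0233 to 0.248), and fell there (adjusted p = 0.00296). Ccl28, a mucosal chemokine, rose in D6 (log2 fold change 0.83, SE 0.27, adjusted p = 0.0291), and this call was lost without any 1 of 5 of the 6 libraries, all but DMSO library 3 (adjusted p up to 0.102), without a filter (0.137) and with the 2 groups fitted alone. Ccl9 fell in D12 from 0.749 ± 0.166 to 0.308 ± 0.0315 CPM (mean ± SD, n = 3; log2 fold change -1.27, SE 0.33, adjusted p = 0.0148), which was lost without DMSO D12 library 2 (adjusted p = 0.0593), without the third Torin libraries (adjusted p = 0.0614), without a filter and with limma on the signal (0.243). Ccl25 stayed between 6.47 ± 0.969 and 7.47 ± 0.539 CPM in the means of the 4 Torin experiment groups. Ccl27a, whose near-identical copies make the assignment of its reads uncertain, read 14.1 ± 1.23 and 10.8 ± 1.5 CPM in D6 and 12.2 ± 0.596 and 15.6 ± 2.67 CPM in D12, opposite directions without a call in either arm. Ccl27a fell in D6 without the third Torin libraries (log2 fold change -0.48, adjusted p = 0.0104) or without that of D6 alone (0.0296), with DESeq2 (0.0413), with limma on the signal (0.0224) and with a filter of 1 CPM (0.0495).

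In the IL-1 family, the receptor antagonist rose and the alarmins did not rise with Torin. Il1rn, which encodes the protein that blocks the IL-1 receptor, rose in all 3 comparisons. It read 62.6, 61.6 and 52.4 against 285, 316 and 283 CPM in D6 (log2 fold change 2.32, SE 0.09, adjusted p = 8.49e-09) and 74.1, 64.9 and 72.3 against 110.0, 111 and 119 CPM in D12 (log2 fold change 0.68, SE 0.09, adjusted p = 0.000158). With estradiol it read 45.9, 42.5 and 45.1 against 90.1, 83.3 and 89.3 CPM (log2 fold change 0.98, SE 0.05, adjusted p = 1.79e-09). Replicates lay close together and the groups were apart each time. Il33, a nuclear alarmin released by damaged epithelium that acts on ST2, fell from 315, 265 and 274 to 59.5, 85.3 and 77.7 CPM in D6 (log2 fold change -1.94, SE 0.17, adjusted p = 3.4e-06) and from 283, 289 and 264 to 106, 163 and 156 CPM in D12 (log2 fold change -0.97, SE 0.16, adjusted p = 0.00102). With estradiol the groups overlapped (log2 fold change -0.17, SE 0.09, adjusted p = 0.158), and without ethanol library 1 the adjusted p was 0.0354.

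Il1a, which encodes an IL-1 receptor agonist, went in opposite directions in the experiments. With estradiol it rose from 1.60, 3.19 and 1.80 to 6.48, 5.63 and 8.70 CPM (log2 fold change 1.64, SE 0.24, adjusted p = 7.93e-05). In Torin D12 it had 8 counts in all against 173 in DMSO D12, a ratio of 0.0470 (95% counting interval 0.0200 to 0.0947), and fell (adjusted p = 0.0038). In D6 it had 31 against 100 counts and was not called (adjusted p = 0.0827), but it fell without the third Torin libraries (log2 fold change -3.18, adjusted p = 0.00103) and with limma on the signal (0.0496). Il18 was not called in any comparison, and Il1b had too few counts to be tested in both experiments.

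Il6, Lif and Il11 encode cytokines that share the receptor subunit gp130. Il6 had the largest log2 fold change of all members in Torin D6. It was nearly silent in DMSO D6, at 0.428, 0.179 and 0.144 CPM (19 counts in all), and reached 8.01, 5.33 and 11.8 CPM (688 counts) in Torin D6 (log2 fold change 5.03, SE 0.52, adjusted p = 1.42e-05). In D12 it went from 0.258, 0.0708 and 0.258 to 0.647, 0.796 and 1.43 CPM, 16 and 79 counts (log2 fold change 2.28, SE 0.55, adjusted p = 0.00948). The groups did not overlap in either arm, and the third Torin library was again the highest. With estradiol Il6 rose from 13 to 42 counts (log2 fold change 1.71, SE 0.47, adjusted p = 0.0113), which was lost without ethanol library 1 (adjusted p = 0.0601).

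Lif, the leukemia inhibitory factor, which activates STAT3 in the gland at the onset of involution, rose from 12.9, 13.8 and 11.9 to 53.7, 51.1 and 62.4 CPM in D6 (log2 fold change 2.12, SE 0.14, adjusted p = 5.34e-07). In D12 it read 14.3, 14.7 and 19.2 and 18.8, 18.4 and 15.1 CPM, with overlap and no call (log2 fold change 0.12, SE 0.14, adjusted p = 0.602). With estradiol it rose from 39.8, 38.1 and 38.6 to 61.8, 64.8 and 67.2 CPM (log2 fold change 0.73, SE 0.05, adjusted p = 4.15e-08), with very little spread in both groups. Il11 went the other way in D6, from 2.99 ± 0.472 to 1.08 ± 0.201 CPM (mean ± SD, n = 3; log2 fold change -1.46, SE 0.23, adjusted p = 0.000389). In D12 (log2 fold change -0.61, SE 0.22, adjusted p = 0.0631) and with estradiol (log2 fold change 0.58, SE 0.38, adjusted p = 0.269) it was not called.

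Csf3, which encodes G-CSF, the factor that drives the making of neutrophils, rose in all 3 comparisons. In D6 it read 58.8, 48.3 and 45.1 against 252, 257 and 211 CPM (log2 fold change 2.24, SE 0.11, adjusted p = 5.28e-08), and in D12 47.4, 52.4 and 46.1 against 178, 171 and 189 CPM (log2 fold change 1.88, SE 0.11, adjusted p = 9.43e-07). Every Torin library was at more than 2-fold any DMSO library of its arm, and here the third Torin D6 library was the lowest of its group. With estradiol Csf3 rose from 24.2, 21.3 and 19.0 to 29.2, 29.7 and 34.1 CPM (log2 fold change 0.52, SE 0.09, adjusted p = 0.000287). Csf1 and Il34 encode the 2 ligands of CSF1R, the receptor that keeps macrophages alive, and they moved apart in Torin D6. Csf1 fell from 371, 341 and 359.5 to 255, 257 and 213 CPM (log2 fold change -0.56, SE 0.11, adjusted p = 0.00177), while Il34 rose from 20.3, 17.3 and 19.8 to 60.3, 60.2 and 57.0 CPM (log2 fold change 1.63, SE 0.15, adjusted p = 8.03e-06).

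In D12 Csf1 also fell, from 319, 315 and 379 to 205, 247 and 263 CPM (log2 fold change -0.50, SE 0.11, adjusted p = 0.00585), and Il34 read 20.8, 21.7 and 18.8 and 14.6, 17.4 and 24.0 CPM with no call (log2 fold change -0.13, SE 0.15, adjusted p = 0.595). Torin D12 library 3 was the highest for Il34, and without the third libraries Il34 fell in D12 (log2 fold change -0.34, adjusted p = 0.032). With estradiol Il34 rose from 13.8, 13.9 and 14.5 to 17.5, 17.0 and 18.9 CPM (log2 fold change 0.34, SE 0.08, adjusted p = 0.00378), but not when the authors' normalized signal was used in place of counts (adjusted p = 0.696). Csf1 was not called with estradiol (log2 fold change 0.08, SE 0.05, adjusted p = 0.195). Csf2 had too few counts to be tested.

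**Figure D4:**
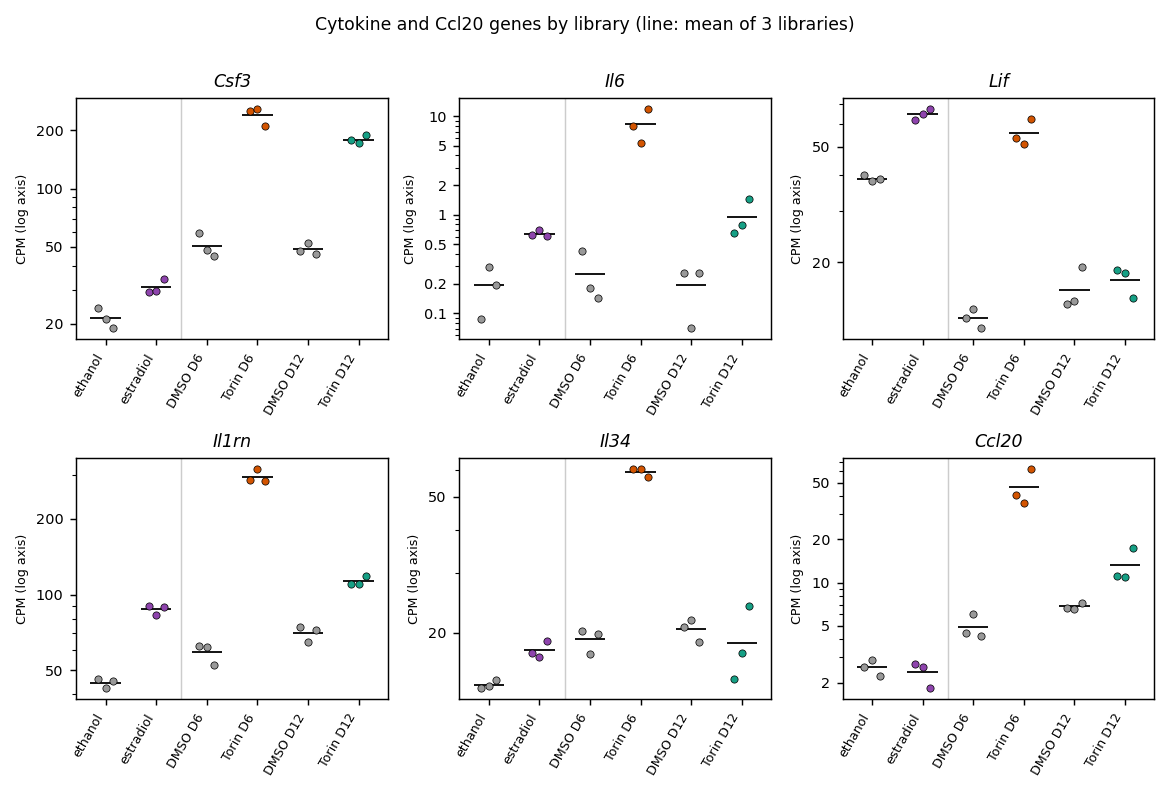
CPM (log axis) of Csf3, Il6, Lif, Il1rn, Il34 and Ccl20 in every library, by group, with lines at the mean of 3 libraries; grey points are vehicle groups. All 6 genes lay higher in Torin D6 than in DMSO D6 without overlap, and Lif and Il34 overlapped with DMSO in D12.

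Tnfsf10, which encodes the death receptor ligand TRAIL, changed in opposite directions in the Torin arms. It fell from 51.0, 43.1 and 38.9 to 26.7, 26.7 and 27.3 CPM in D6 (log2 fold change -0.72, SE 0.11, adjusted p = 0.000371) and rose from 43.5, 41.1 and 34.2 to 52.4, 54.5 and 58.4 CPM in D12 (log2 fold change 0.48, SE 0.11, adjusted p = 0.00858). The groups did not overlap in either arm. With estradiol Tnfsf10 was not called, and its difference was small and tightly measured (log2 fold change -0.04, SE 0.05, adjusted p = 0.52). Tnfsf18, the ligand of the T cell receptor GITR, was scarce and fell throughout: 44 and 2 counts in D6, a ratio of 0.0418 (95% counting interval 0.00491 to 0.160), and 105 and 3 in D12, a ratio of 0.0290 (0.00589 to 0.0872). With estradiol it had 75 counts in ethanol and 13 in estradiol libraries (log2 fold change -2.43, SE 0.60, adjusted p = 0.00587), and without ethanol library 2, which held the most, the adjusted p was 0.0568.

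Tnf, the founding member of its family, was called with estradiol. There it rose from 16.8, 16.9 and 18.8 to 20.8, 20.8 and 19.9 CPM (log2 fold change 0.23, SE 0.07, adjusted p = 0.0232), a call lost without ethanol library 1 or 2 or estradiol library 1 or 2 (adjusted p up to 0.0835), with DESeq2 (0.0651) and with limma on the signal. In the Torin arms it was not called (log2 fold change 0.55, SE 0.29 in D6; log2 fold change 0.39, SE 0.29 in D12), except in D6 without Torin library 2 (adjusted p = 0.0208). Tslp, an epithelial cytokine that acts on dendritic cells, fell in D12 from 4.09 ± 1.06 to 1.44 ± 0.291 CPM (mean ± SD, n = 3; log2 fold change -1.5, SE 0.26, adjusted p = 0.00145). In D6 (log2 fold change -0.35, SE 0.25, adjusted p = 0.305) and with estradiol (log2 fold change -0.95, SE 0.38, adjusted p = 0.0656) it was not called. With estradiol it fell without a filter (adjusted p = 0.0378), with a filter of 1 CPM (0.0492), with the replicate number as a block (0.034), and without ethanol library 3 or estradiol library 1 (as low as 0.0287).

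The Torin effect differed between the arms for 20 of 37 members, where 10.6% of all genes tested did. The difference, D12 minus D6, was below 0 for 13 members and above 0 for 7, against 5.55% and 5.03% of genes. Most of the first had risen in D6 and rose less or were not called in D12: Il6 (log2 difference -2.75, SE 0.80), Ccl20 (log2 difference -2.29, SE 0.34), Lif (log2 difference -2.0, SE 0.20), Cxcl5 (log2 difference -1.96, SE 0.31), Il34 (log2 difference -1.76, SE 0.22), Il1rn (log2 difference -1.64, SE 0.12) and Cxcl16 (log2 difference -1.59, SE 0.17) among them. Cxcl14 (log2 difference 1.99, SE 0.23) and Il33 (log2 difference 0.97, SE 0.23) had fallen less in D12, and Cxcl12 (log2 difference 0.79, SE 0.12) had risen more. The effects on Csf3, Cxcl15, Csf1 and Cx3cl1 passed the threshold in both arms, and their differences between arms did not (adjusted p = 0.171, 0.352, 0.85 and 0.213). The count of 20 became 12 without Torin D12 library 2 and 13 without DMSO D6 library 1, DMSO D12 library 3 or Torin D6 library 1. Without the third Torin libraries it was 22, against 17.9% of genes: the differences of Ccl8, Csf3 (log2 difference -0.45, adjusted p = 0.031) and Cxcl9 were then called, and that of Ccl9 was not (adjusted p = 0.1). The differences of Ccl11, Ccl27a and Cxcl3 were lost without any 1 of 10 of the 12 libraries, those of Ccl7 and Cxcl17 without 9, those of Ccl9 and Il6 without 8 and that of Il33 without 3.

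**Figure D5:**
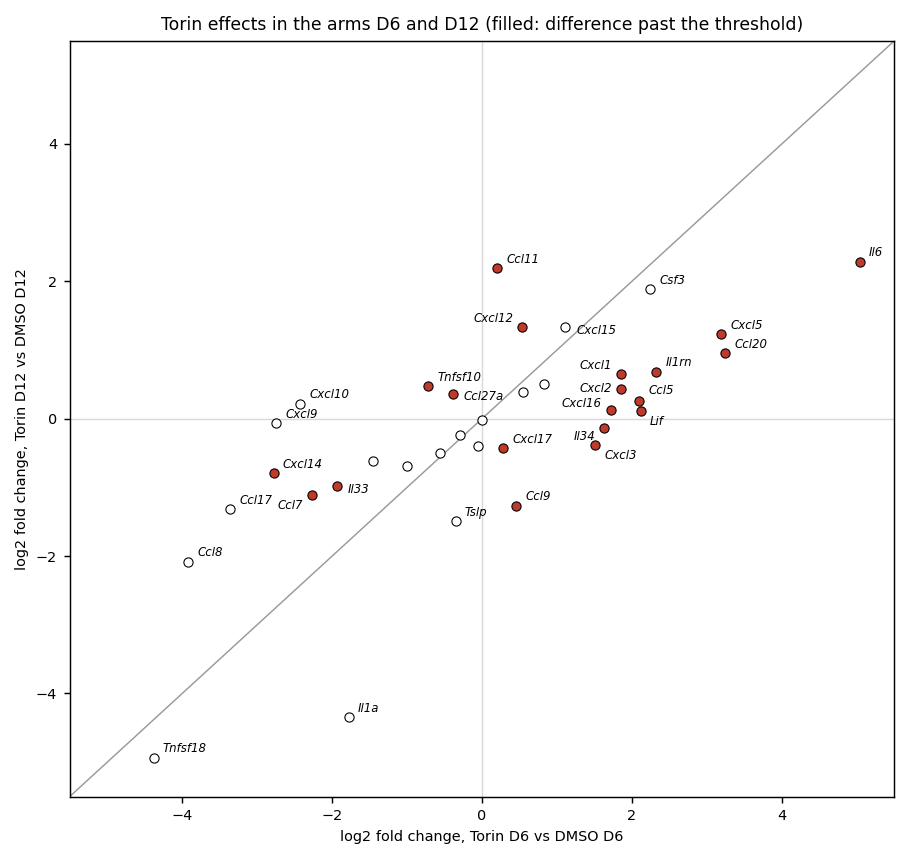
Log2 fold change with Torin in D6 (x axis) and in D12 (y axis) of the 37 members tested; filled points are the 20 whose difference between arms passed the threshold, and the diagonal marks equal effects. Il6, Ccl20 and Cxcl5 lie far right of the diagonal, Csf3 and Cxcl15 lie near it, and Cxcl14 lies to its left.

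Between the vehicle groups, DMSO D12 against DMSO D6, 0 of 37 members were called by edgeR's quasi-likelihood test, and 0.00552% of all genes tested were, which is 1 gene. DESeq2 and limma called 0 of the members too. At an unadjusted p under 0.05 there were 7 members, against 4.04% of all genes: Ccl11 (log2 fold change -1.48), Ccl8 (log2 fold change -1.23), Cxcl12 (log2 fold change -0.29), Cxcl16 (log2 fold change 0.38), Il1rn (log2 fold change 0.26), Cxcl15 (log2 fold change -0.24) and Lif (log2 fold change 0.32). The groups of Ccl11, Ccl8, Cxcl12, Cxcl16, Il1rn and Lif did not overlap. Their Torin effects in D6 and D12 were measured from these control values. In all, the DMSO groups of 14 of 37 members did not overlap, against 12.2% of all genes. No control difference passed the threshold, so no single member's control level can be said to differ.

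Receptors and regulators around these ligands were counted from lists drawn up with results of these data known. The shares over all genes tested belong beside the counts here and in the next paragraph. With estradiol 17.4% of genes rose and 16.6% fell. In Torin D6 19.8% rose and 19.3% fell, and in D12 10.8% and 14.6%. Without the third Torin libraries the shares were 19.8% and 21.6% in D6 and 17.5% and 18.0% in D12. Of the receptors of these ligands, 22 of 43 could be tested with estradiol, where 5 rose and 7 fell (median log2 fold change -0.13). Those with the lowest p were Ackr3 (log2 fold change -1.90, adjusted p = 1.01e-08), a scavenger of Cxcl12, Il18rap (log2 fold change 2.06, adjusted p = 3.34e-08), a subunit of the IL-18 receptor, and Tnfrsf18 (log2 fold change -0.78, adjusted p = 1.6e-07), the receptor of Tnfsf18. In Torin D6, 7 of 28 receptors rose and 6 fell (median -0.15), led by falls of Il1rl1 (log2 fold change -3.04, adjusted p = 3.57e-06), which encodes the Il33 receptor ST2, Tnfrsf18 (log2 fold change -1.12, adjusted p = 6.79e-06) and Tnfrsf1b (log2 fold change -1.54, adjusted p = 1.25e-05). In D12, 4 rose and 5 fell (median -0.05), with Tnfrsf1b (log2 fold change -1.26, adjusted p = 0.000123), Il18r1 (log2 fold change -1.07, adjusted p = 0.000129) and Il1rl1 (log2 fold change -1.70, adjusted p = 0.000425) in the lead. Il33 and the gene of its receptor thus both fell in each Torin arm.

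Regulators and targets of NF-kB, 24 genes of which all were tested, rose more often than they fell in Torin D6. There 13 rose and 3 fell, with a median log2 fold change of 0.75 (0.05 over all genes), led by Tnip1 (log2 fold change 1.28, adjusted p = 1.83e-07), a brake on NF-kB signalling, the mitochondrial dismutase Sod2 (log2 fold change 0.99, adjusted p = 2.19e-06) and the acute-phase gene Saa3 (log2 fold change 4.02, adjusted p = 5.67e-06). Without the third Torin libraries 11 rose and 3 fell, and the median was 0.20. In D12, 6 rose and 4 fell (median 0.10), or 9 and 6 without the third Torin libraries, with Sod2 rising (log2 fold change 1.16, adjusted p = 2.74e-06) and Ptgs2 (log2 fold change -1.81, adjusted p = 0.000135) and Traf1 (log2 fold change -1.03, adjusted p = 0.000562) falling. With estradiol 11 rose and 5 fell (median 0.05), among them Tnfaip2 (log2 fold change -0.48, adjusted p = 1.66e-06), Ptgs2 (log2 fold change 0.58, adjusted p = 7.2e-06) and Cebpd (log2 fold change -0.50, adjusted p = 7.22e-06). Of the cytokine ligands outside the rule, 0 of 13 tested rose and 2 fell with estradiol, where Il19 (log2 fold change -2.20, adjusted p = 5.79e-05) and Mif (log2 fold change -0.42, adjusted p = 2.61e-06) fell. In Torin D6, 3 of 14 rose and 4 fell, and in D12, 1 rose and 4 fell; Mif and Tnfsf9 fell in both arms.

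The other 17 members in each table had too few counts to be tested. Of these, 5 in the estradiol and 3 in the Torin table had no count in any library, and the rest had at most 31 (Ccl24) and 142 counts (Ccl12) over all libraries of the experiment. Il1b, Ccl3, Ccl4, Ccl22 and Csf2, ligands known above all from leukocytes, were among them, as were Cxcl11, Cxcl13, Ccl19 and the Ccl21 genes.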

How the data were processed

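Poly(A) RNA of 18 libraries was sequenced as paired ends. Per the submitters' processing notes, kallisto, DESeq2, cutadapt, Trim Galore and build GRCm39 were used, with FastQC and MultiQC, with no role or version given. The estradiol table holds the authors' deposited estimated counts (32.2% not whole), rounded here, with rows named through the symbols of the authors' normalized table. The Torin table holds deposited whole counts. The deposited normalized values are a signal scaled by the authors and served only in an alternative. CPM were taken relative to the TMM-scaled total of the filtered genes.

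Each experiment was fitted over all genes in R 4.3.3 with edgeR 4.0.16 (filterByExpr, TMM, quasi-likelihood test, Benjamini-Hochberg adjusted p under 0.05). The 4 Torin experiment groups shared 1 fit. The script was tested on simulated data. Alternatives were DESeq2 1.42.0, RLE scaling, no filter, a filter of 1 CPM in 3 libraries, the replicate number as a block, 2 groups fitted alone, each library left out, and limma 3.58.1 on log2(signal + 1) for genes with a mean signal of at least 10. Leaving out the third Torin library of both arms was added after seeing the data. The rule for members goes by symbol alone, but it and the lists were set with earlier results of these data known. Members with a mean of at least 5 CPM in a group and a call in that experiment are given by library, and of each list the 3 genes with the lowest p per comparison may be named. Further genes are named beside a count or a role, chosen after their values were seen. Intervals on counts are exact and cover counting error only. Of the Torin samples the design text speaks of, 12 were used and any others were not analysed here.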

Additional observations from a re-analysis of the deposited data

Results flagged for a closer look

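For 20 members the Torin effect differed between the arms by the test of the difference itself (edgeR, adjusted over all genes). Values are D12 minus D6 on the log2 scale. Below 0 were Il6 (-2.753), Ccl20 (-2.289), Lif (-2), Cxcl5 (-1.963), Cxcl3 (-1.89), Ccl5 (-1.842), Il34 (-1.758), Ccl9 (-1.725), Il1rn (-1.639), Cxcl16 (-1.591), Cxcl2 (-1.424), Cxcl1 (-1.205) and Cxcl17 (-0.7152). Above 0 were Ccl11 (1.991), Cxcl14 (1.986), Tnfsf10 (1.197), Ccl7 (1.158), Il33 (0.9675), Cxcl12 (0.795) and Ccl27a (0.7407). The estimates had opposite signs in the arms for Tnfsf10, Cxcl17, Cxcl3, Ccl9, Il34 and Ccl27a, and only Tnfsf10 passed the threshold in both. Batch tag, start and length of treatment cannot be told apart in these differences.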

How the results depend on the processing

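No result changed its direction while called, and the 6 counts of members that rose or fell stayed within 1.5 times their value under every alternative run. The count of members whose Torin effect differed between arms, 20, ranged from 12 to 18 with 1 library left out: 12 without Torin D12 library 2, and 13 without DMSO D6 library 1, DMSO D12 library 3 or Torin D6 library 1. These fits hold fewer samples. Over single members, 1317 values kept their side of the threshold with a library left out, 98 lost and 22 gained a call, and under the other alternatives these were 1162, 23 and 15. With the replicate number as a block, 14 members rose and 6 fell with estradiol, 15 and 12 in Torin D6, 10 and 11 in D12, 16 differed between arms and 0 between DMSO groups. Same-numbered libraries of different groups were compared after each gene's group mean was taken off its log2 values. What remained correlated at -0.0567 to -0.0247 in the estradiol and -0.237 to 0.119 in the Torin experiment. The highest, 0.119, was between the third libraries of Torin D6 and Torin D12. Such low values give little sign of pairing by number but cannot exclude a shared origin. On simulated data, 64% of genes changed 1.5-fold and 94% of those changed 3-fold were recovered in the estradiol comparison of 15358 genes, and 20% and 68% in Torin D6 of 18112, so small changes can be missed there. False calls were 8.67% and 2.22% of calls, the first above the 5% aimed at. The simulation changed 100 genes at each size, where 34.0% and 39.1% of all genes were called in the data. These rates may therefore not hold for the data.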
